A study of Homo sapiens with 7 samples.

Results

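Aminoacyl-tRNA synthetases join each amino acid to its tRNA and so supply the ribosome with charged tRNA. Most animal genes of this family encode an enzyme of the cytosol, and a separate nuclear set encodes enzymes that work inside mitochondria. Class I and class II enzymes carry unrelated catalytic folds, and several cytosolic members sit together in a multisynthetase complex. Many cytosolic members are known targets of the amino acid response, in which the transcription factor ATF4 raises genes of amino acid supply when uncharged tRNA accumulates.

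The 36 members described here were the 20 cytosolic and 16 mitochondrial synthetase genes named by their GRCh37 symbols, each matched by Ensembl identifier to the exon counts, out of 62238 genes in the count files. Most cytosolic symbols have since gained the suffix 1, so that AARS is now AARS1 and WARS is now WARS1. RBM15, an RNA-binding protein of nuclear speckles, was knocked down in MEG-01, a human megakaryoblastic leukemia cell line. The RNA-seq comparison held 1 control library, whose label names no knockdown, and 2 knockdown lines, made with shRBM15#1 (line 1) and shRBM15#2 (line 2). Each of these 3 samples was labelled as carrying lentiviral transgenes, and each came from passage 5 cells in RPMI1640 with 10% FBS, harvested in exponential phase. Anti-RBM15 and normal IgG RNA immunoprecipitation (RIP-seq) from MEG-01 gave reads over a list of RBM15 sites.

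RBM15 itself had 3970 reads in the control, 1957 in line 1 and 2121 in line 2, or 80.2, 43.7 and 40.7 CPM (counts scaled by library size with edgeR's TMM factors), and its log2 fold change of -0.93 (SE 0.23) had an adjusted p of 0.091. The libraries held between 41629454 and 53230029 counts on exon bins, in which a read over several bins appears to count several times. Reads that named no bin were 32.0% of all counts, bin counts included, in line 1 against 23.2% in the control and 23.5% in line 2. Megakaryocyte markers went both ways without passing the test. ITGA2B was at 919, 476 and 607 CPM in control, line 1 and line 2, whereas ITGB3 (6.28, 17.9 and 51.8 CPM), PPBP (2.38, 6.12 and 56.9 CPM) and FLI1 (61.8, 88.4 and 110.1 CPM) were higher in both lines. GATA1 was at 71.7, 64.2 and 66.0 CPM and GP1BA at 4.75, 3.37 and 3.72 CPM, while the platelet genes GP9 and PF4 had fewer than 30 reads over the 3 libraries together. Erythroid markers moved with the knockdown, since the summed level of the 5 listed genes was 935 CPM in the control and 4279 and 4214 CPM in the lines. The part of these and the following markers in the synthetase results was not tested, and in bulk RNA a change in the kinds of cells cannot be told apart from a change in RNA per cell. Summed CPM of the 3 T cell and 3 B cell markers stayed between 1.41 and 3.48, whereas the 4 epithelial markers summed to 158, 107 and 109 CPM. The 3 fibroblast markers summed to 1.31, 9.92 and 9.43 CPM, and 1 of them, the growth factor receptor gene PDGFRA, rose (log2 fold change 3.31, SE 0.50, adjusted p = 0.017).

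Because there was 1 control, the only spread within a group was that between the knockdown lines, with 1 residual degree of freedom. The edgeR test moderates this spread towards values shared over all genes or bins, so each p-value below rests in part on other genes. No p-value measures a spread between controls, and nothing in the labels says that the libraries came from separate cultures. Both lines were set against the same control library, so their agreement in direction is not independent.

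Most cytosolic synthetase mRNAs lay below the control after RBM15 knockdown, although 4 of 20 passed the test, while mitochondrial ones lay on either side of it. The median log2 fold change was -0.85 over the 20 cytosolic members and -0.07 over the 16 mitochondrial members, beside 0.02 over the 24887 genes tested. In both lines 18 of 20 cytosolic members lay below the control, against 8 of 16 mitochondrial members and 39.5% of all genes tested. The cytosolic median was -0.84 in line 1 and -0.84 in line 2, so it did not rest on 1 line. Of the 36 members, 4 passed an adjusted p of 0.05, and WARS, AARS, CARS and GARS were all lower. The background for that call was 1.2% of all genes called lower and 0.534% called higher. The members were chosen with earlier results of these data known, so this background is no test of the set. At an adjusted p of 0.01, the limit of the study's own gene table, WARS alone remained, beside 0.277% of all genes.

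**Figure D1:**
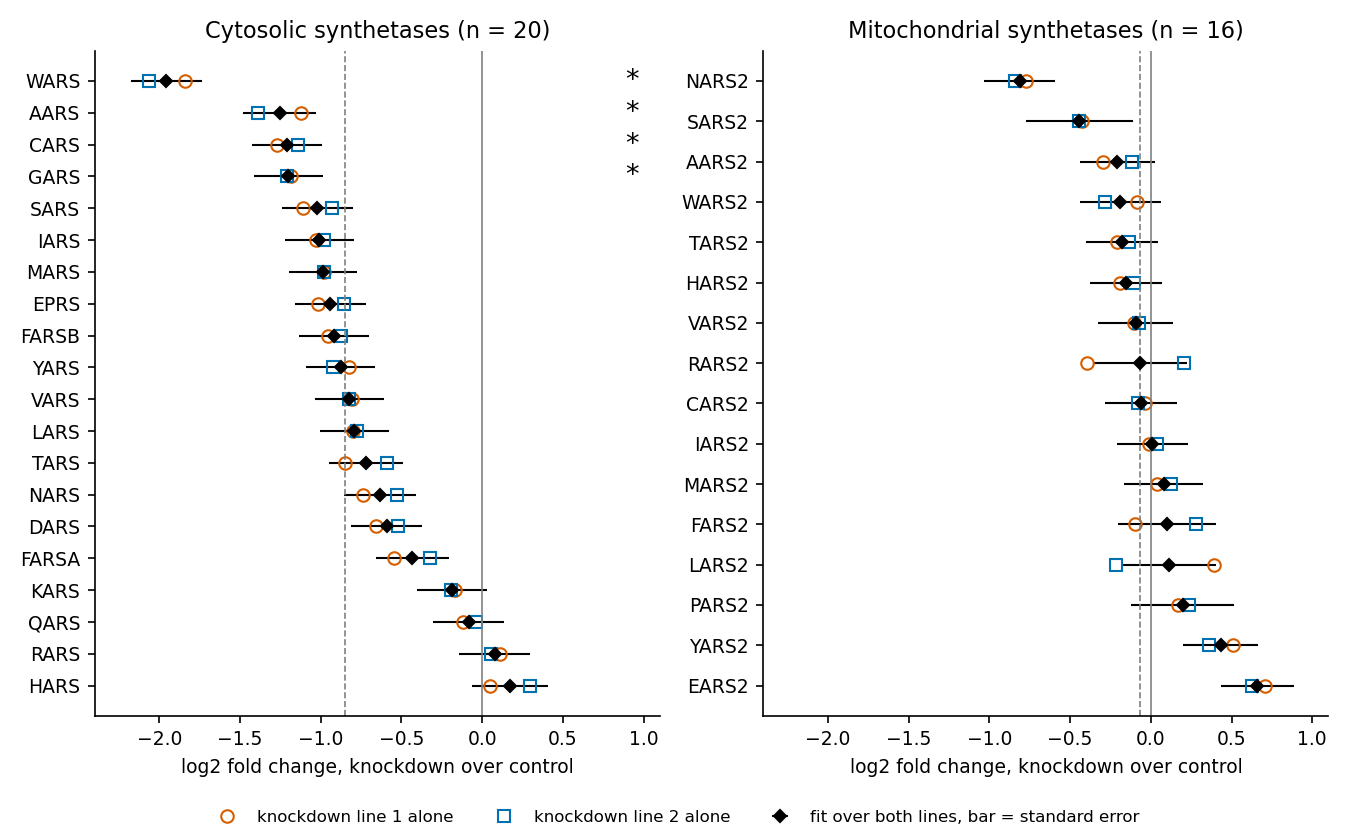
Log2 fold change of knockdown over control for the 20 cytosolic (left) and 16 mitochondrial (right) synthetases, with diamonds for the edgeR fit, bars for its standard error, open circles for line 1 and open squares for line 2. Dashed lines mark the medians of -0.85 and -0.07, asterisks mark the 4 members with adjusted p under 0.05, and 18 of 20 cytosolic members lie left of 0 in both lines.

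WARS, the tryptophanyl-tRNA synthetase and a known interferon-induced gene, lies on the minus strand at chr14:100800127-100843142 (GRCh37). It had 123993 reads in the control, 31036 in line 1 and 31205 in line 2, or 2506, 693 and 598 CPM. Both lines were far below the control and close to each other. WARS fell by 1.96 on the log2 scale (SE 0.22, adjusted p = 0.0055), which left 0.258 of the control level. Of its exon length, 10.6% is shared with WDR25 and an unnamed gene, and reads over that length could not be separated by gene. Its mitochondrial counterpart WARS2 stood at 36.6, 34.2 and 30.03 CPM, a log2 fold change of -0.19 (SE 0.25, adjusted p = 0.73).

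AARS, the alanyl-tRNA synthetase at chr16:70285886-70323610, was at 675 CPM in the control, 308 in line 1 and 257 in line 2. It fell by 1.26 on the log2 scale (SE 0.22, adjusted p = 0.032), and it shares no exon length with another gene. AARS2, the mitochondrial enzyme for the same amino acid, was at 71.2, 57.6 and 65.6 CPM, with a log2 fold change of -0.21 (SE 0.23, adjusted p = 0.67).

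CARS, the cysteinyl-tRNA synthetase at chr11:3022152-3078843, was at 206 CPM in the control and at 84.6 and 93.2 CPM in the lines. It fell by 1.21 on the log2 scale (SE 0.22, adjusted p = 0.032). CARS2 was nearly level at 84.9, 82.2 and 80.5 CPM, with a log2 fold change of -0.06 (SE 0.22, adjusted p = 0.91).

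GARS, the glycyl-tRNA synthetase at chr7:30620149-30673649, was at 559 CPM in the control and at 244 and 242 CPM in the lines. It fell by 1.2 on the log2 scale (SE 0.21, adjusted p = 0.031). GARS has no separate mitochondrial gene, because its transcripts also encode the mitochondrial enzyme. Counting each gene by its single most-read exon bin, an alternative chosen after seeing the data, kept WARS (-1.79, adjusted p = 0.049) and ended the calls of AARS, CARS and GARS (-1.17, -1.13 and -1.03, adjusted p = 0.086, 0.076 and 0.086).

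**Figure D2:**
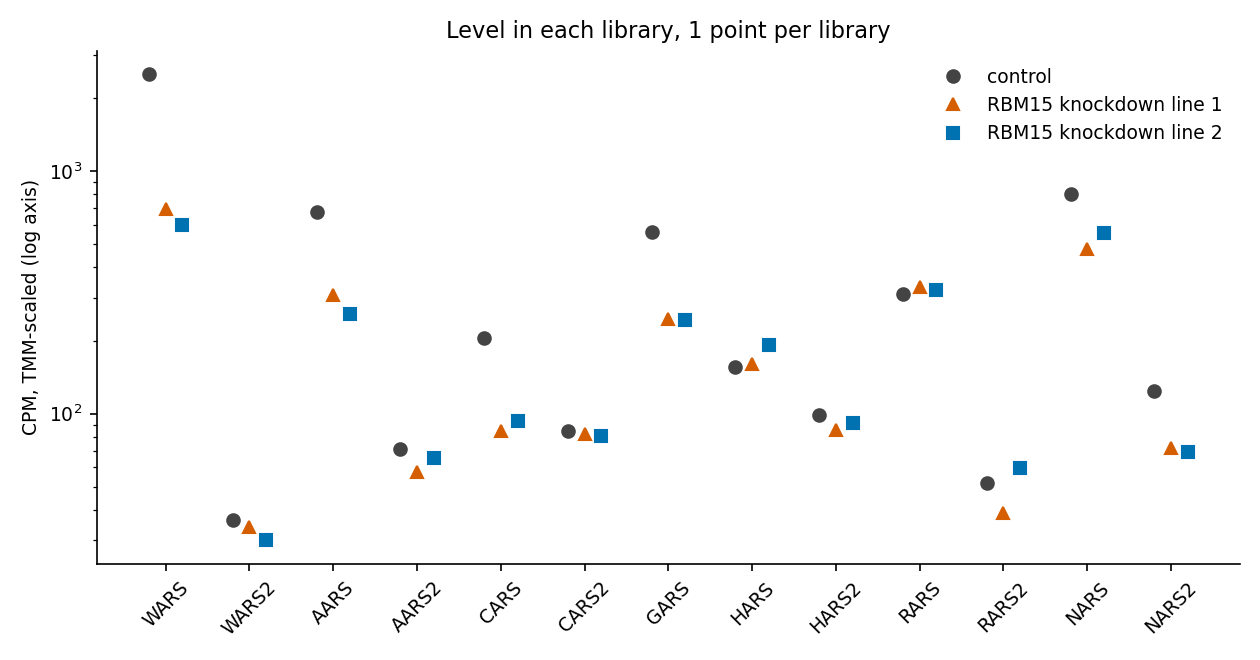
CPM on a log axis in the control (circles) and in knockdown lines 1 (triangles) and 2 (squares), 1 point per library, for the 4 called synthetases with their mitochondrial partners and for the pairs in which the mitochondrial fold change was not the higher one. Points compare libraries within a gene only, since CPM is not divided by length. WARS drops from 2506 to 693 and 598 CPM while WARS2 stays between 30.03 and 36.6 CPM.

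Beyond the called genes, 10 of the 20 cytosolic members had an adjusted p under 0.1 and a lower level, the called ones included, and 15 had an unadjusted p under 0.05 and a lower level. Over all genes these shares were 2.35% and 9.17%. The 16 cytosolic members without a call ranged from -1.02 (SARS) to 0.17 (HARS) on the log2 scale, with a median of -0.76. The uncalled ones under 0.1 were SARS, IARS, MARS, EPRS, FARSB and YARS. Their log2 fold changes lay between -1.02 and -0.88 and their adjusted p between 0.058 and 0.092. That limit, not a gap in the values, sets this group, since VARS followed at -0.82 (SE 0.21, adjusted p = 0.10). IARS, the isoleucyl enzyme, was at 1005 CPM in the control and at 489 and 510 CPM in the lines (log2 fold change -1.01, SE 0.21, adjusted p = 0.058). MARS, the methionyl enzyme, was at 706, 355 and 357 CPM, a log2 fold change of -0.99 (SE 0.21, adjusted p = 0.062). Here 12.4% of MARS exon length is shared with ARHGAP9 and with DDIT3, an ATF4 target that itself fell by 1.75 on the log2 scale, and how much of the MARS value came from shared reads was not tested.

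The remaining lower cytosolic members were closer to the control. LARS, the leucyl enzyme, was at 1280 CPM in the control against 730 and 749 CPM in the lines (log2 fold change -0.79, SE 0.21, adjusted p = 0.11). TARS, the threonyl enzyme, was at 766, 421 and 509 CPM (log2 fold change -0.72, SE 0.23, adjusted p = 0.16). DARS, the aspartyl enzyme, was at 235, 148 and 164 CPM (log2 fold change -0.59, SE 0.22, adjusted p = 0.21). FARSA and FARSB encode the subunits of the same phenylalanyl enzyme, and they differed in size of change. FARSA was at 494, 336 and 395 CPM, a log2 fold change of -0.43 (SE 0.23, adjusted p = 0.34), whereas FARSB had -0.92 (SE 0.22, adjusted p = 0.083), and that difference was not tested.

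KARS, QARS, RARS and HARS were the cytosolic members nearest to 0. QARS, the glutaminyl enzyme, was at 281 CPM in the control and at 256 and 273 CPM in the lines, with a log2 fold change of -0.08 (SE 0.22, adjusted p = 0.88) that turned to 0.027 when counted by the most-read bin. RARS, the arginyl enzyme, was at 310, 332 and 322 CPM, with a log2 fold change of 0.08 (SE 0.22, adjusted p = 0.89), and its sign turned to -0.06 without the filter on low counts. HARS, the histidyl enzyme, was at 156, 160 and 191 CPM, a log2 fold change of 0.17 (SE 0.23, adjusted p = 0.74). HARS and its neighbour HARS2 share exon length (16.5% of HARS and 18.1% of HARS2), so their counts may include the same reads. How reads over shared length were counted was not stated. KARS, the lysyl enzyme, whose gene also encodes a mitochondrial form, had -0.19 (SE 0.22, adjusted p = 0.69).

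By enzyme class and assembly the cytosolic members overlapped. Median log2 fold changes were -0.88 for the 9 class I members and -0.68 for the 10 class II members, with the bifunctional EPRS, the glutamyl-prolyl enzyme that carries a domain of each class, at -0.94. The 8 members that sit in the multisynthetase complex had a median of -0.69 and the 12 outside it one of -0.90. All 4 called members were outside the complex. These are descriptions of overlapping groups, for which no test was run.

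No mitochondrial synthetase passed the test with edgeR (0 of 16) or with DESeq2 (0 of 16), and at an unadjusted p under 0.05 edgeR had 1 of 16 lower and 1 of 16 higher, beside 9.17% and 9.61% of all genes, so that neither count stands above the background. NARS2, the mitochondrial asparaginyl enzyme, was the lower one, at 124 CPM in the control and 72.2 and 69.3 CPM in the lines, a log2 fold change of -0.81 (SE 0.22, adjusted p = 0.11). EARS2, the mitochondrial glutamyl enzyme, was the higher one, at 80.7 CPM against 131 and 124 CPM (log2 fold change 0.66, SE 0.23, adjusted p = 0.19). Some of the EARS2 exon length, 11.5%, is shared with UBFD1. SARS2, the mitochondrial seryl enzyme, was low in every library at 8.14, 6.01 and 5.98 CPM (403, 269 and 312 reads), with a log2 fold change of -0.44 (SE 0.33, adjusted p = 0.50), and 20.1% of its exon length is shared with MRPS12.

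At the centre of the mitochondrial set, IARS2 was at 201, 198 and 206 CPM in control, line 1 and line 2, a log2 fold change of 0.01 (SE 0.22, adjusted p = 0.99). RARS2 was at 51.8, 39.1 and 59.6 CPM, so that line 1 lay below the control and line 2 above it (log2 fold change -0.07, SE 0.29, adjusted p = 0.93). TARS2 was at 90.2, 77.5 and 82.1 CPM (log2 fold change -0.18, SE 0.22, adjusted p = 0.72). In 4 of the 16 mitochondrial members the lines fell on both sides of the control (FARS2, IARS2, LARS2 and RARS2), as they did in 0 of the 20 cytosolic members and in 20.7% of all genes tested. In 4 mitochondrial members both lines were above the control, as they were in 39.7% of all genes tested. The 16 mitochondrial genes together summed to 1082 CPM in the control and 1060 and 1066 CPM in the lines, whereas the 20 cytosolic genes summed to 12865, 6682 and 6943 CPM. WARS alone supplied 2506, 693 and 598 CPM of these cytosolic sums.

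Set against its cytosolic counterpart for the same amino acid, the mitochondrial gene had the higher log2 fold change in 14 of 17 pairs, and in each of those 14 it was higher in both lines. Among the pairs, EPRS was matched with both EARS2 and PARS2, and both FARSA and FARSB with FARS2. The median difference, mitochondrial minus cytosolic, was 1.02 on the log2 scale, from 1.77 for WARS2 against WARS down to -0.32 for HARS2 against HARS. The other pairs below 0 were NARS2 against NARS (-0.18) and RARS2 against RARS (-0.15). Pairs that share a gene are not independent, and no test was run over them.

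Among genes that surround tRNA charging, 2 of 20 passed the test. Of all genes tested 1.74% passed it, and 1.2% were called lower. Of 20 related genes (scaffolds of the multisynthetase complex, tRNA export and end repair, mitochondrial amidotransferase subunits, selenocysteine synthesis, proofreading, the sensor kinase for uncharged tRNA and elongation factors), both were called lower, with a median log2 fold change of -0.26. DTD1, which removes D-amino acids from tRNA, was at 36.4 CPM in the control and 11.5 and 14.2 CPM in the lines, and it fell by 1.5 on the log2 scale (SE 0.27, adjusted p = 0.033). EEF1E1, a scaffold subunit of the multisynthetase complex, was at 76.6, 31.3 and 35.2 CPM and fell by 1.21 (SE 0.23, adjusted p = 0.041). The other scaffolds were at -0.19 (AIMP1, adjusted p = 0.71) and -0.45 (AIMP2, adjusted p = 0.41). SEPSECS, which makes selenocysteinyl-tRNA, was at 49.96, 26.0 and 29.6 CPM, a log2 fold change of -0.85 (SE 0.24, adjusted p = 0.13). Neither DTD1 nor EEF1E1 was called when each gene was counted by its most-read bin.

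Genes of the amino acid response had larger changes. ATF4 and 13 other genes of that response gave a median log2 fold change of -1.65. Of these 14, 8 were called lower and 0 higher, beside 1.2% and 0.534% of all genes tested. In both lines 13 of the 14 were lower, beside 39.5% of all genes tested. This list, like that of the related genes, was chosen with earlier results of these data known, so these shares are no test of it. ATF4 itself was not called, at 330, 170 and 158 CPM in control, line 1 and line 2 (log2 fold change -1.01, SE 0.22, adjusted p = 0.059). TRIB3, a pseudokinase that restrains ATF4, was at 208 CPM in the control and 18.7 and 21.6 CPM in the lines, and it fell by 3.37 on the log2 scale (SE 0.23, adjusted p = 0.00099). PHGDH, the entry enzyme of serine synthesis, fell by 2.37 (639, 143 and 104 CPM, SE 0.25, adjusted p = 0.0045). SESN2, a stress-induced inhibitor of mTORC1, fell by 2.03 (41.1, 10.6 and 9.62 CPM, SE 0.26, adjusted p = 0.0098).

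The letters TGATGNAA, the shared core of the C/EBP-ATF response elements through which ATF4 acts, were looked for on both strands (the reverse complement reads TTNCATCA) in RefSeq promoter windows of GRCh38.p14, from 250 bases before to 50 bases after each start. They occurred in 1270 of 35116 windows, or 3.62%. By the same count, 8 of the 39 windows of members held them. By gene, where some had more than 1 window, 7 of the 16 cytosolic members with a window (21 windows) held the letters. Of the 14 mitochondrial members with a window (18 windows), 1 did (YARS2). YARS2 was at 64.4 CPM in the control and at 91.2 and 82.7 CPM in the lines, above the control in both. Its log2 fold change was 0.43 (SE 0.23, adjusted p = 0.35), and its match is not printed. For the 7 cytosolic genes, all of which lay below the control in both lines, the 30 bases around each match are printed in gene orientation. Of all 20 cytosolic members, 18 did so. The matching letters are in capitals, and the place given is that of the promoter window in GRCh38.p14.
AARS (chr16:70289457-70289756, minus strand): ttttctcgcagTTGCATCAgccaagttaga
CARS (chr11:3057374-3057673, minus strand): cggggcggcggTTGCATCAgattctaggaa
GARS (chr7:30594628-30594927, plus strand): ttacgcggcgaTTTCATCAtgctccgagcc
IARS (chr9:92293648-92293947, minus strand): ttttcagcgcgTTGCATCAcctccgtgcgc
MARS (chr12:57487818-57488117, plus strand): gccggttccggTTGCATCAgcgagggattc
NARS (chr18:57621787-57622086, minus strand): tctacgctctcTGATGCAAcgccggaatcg
TARS (chr5:33440715-33441014, plus strand): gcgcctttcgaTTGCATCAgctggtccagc
Counted from the start, the match began at -187 in AARS, -2 in CARS, -33 in GARS, -13 in IARS and -4 in MARS, and at 14 in NARS and 2 in TARS. The 7 cytosolic genes with the letters ranged from -1.26 to -0.64 in log2 fold change, with a median of -1.01. The 9 cytosolic genes with a window and no match had a median of -0.43 and ranged from -1.96 to 0.17, and WARS, the member with the largest change, was among them. The groups overlapped, no test was run, and a match says only that these letters are in the window.

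Exon usage was compared within each gene, as the change of an exon bin relative to the rest of its gene. Of 1246 bins tested in 35 members, 0 had an adjusted p under 0.05 with edgeR, where 0.0205% of 234192 bins in all did. At the limits the study used for its own exon test (p under 0.05 without adjustment, more than 1.2-fold), 19 of the 1246 member bins were called. Over all bins 1.45% were called at these limits, so the member count was near the background. The 19 bins lay in 3 genes, and 17 of them were relatively higher in the knockdown. No share of that direction over all bins was taken. Of the 19, WARS held 15, HARS 2 and FARSA 2. One sequenced fragment appears to be counted in every bin it touches, though the counting rule was not stated. The 1-bp and 2-bp bins of WARS would then carry the reads of their neighbours, and the 15 bins cannot be taken as separate observations. With at least 300 reads per bin, 1 member bin was left.

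The 3 member bins with the smallest p were neighbours near the 5′ end of WARS. Bin 78, 36 bp at chr14:100841848-100841883, had 38 reads in the control, 35 in line 1 and 38 in line 2, and so did not share in the drop of the gene. Relative to WARS as a whole it was higher by 1.92 on the log2 scale (SE 0.42, unadjusted p = 1.8e-05 from edgeR's exon test, adjusted p = 0.072). Bin 79 (1 bp, 22, 19 and 23 reads) and bin 80 (46 bp, 23, 18 and 23 reads) had relative values of 1.91 and 1.81, with adjusted p of 0.42 and 0.63. Further 5′, bin 87 (26 bp at chr14:100842597-100842622) had 236, 104 and 122 reads, or a log2 CPM ratio of -1.04 in line 1 and -1.03 in line 2. By contrast, the most-read bin of the 5′ region, bin 67 at the 3′ edge of chr14:100841620-100841804, had 2436, 453 and 440 reads, ratios of -2.28 and -2.55. Bin 6, in the last exon, had 7497, 1962 and 1879 reads and ratios of -1.79 and -2.07. The upstream bins thus held few of the gene's reads, at most 0.391% in any library for bin 87, and none of bins 77 to 96 passed the adjusted test.

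**Figure D3:**
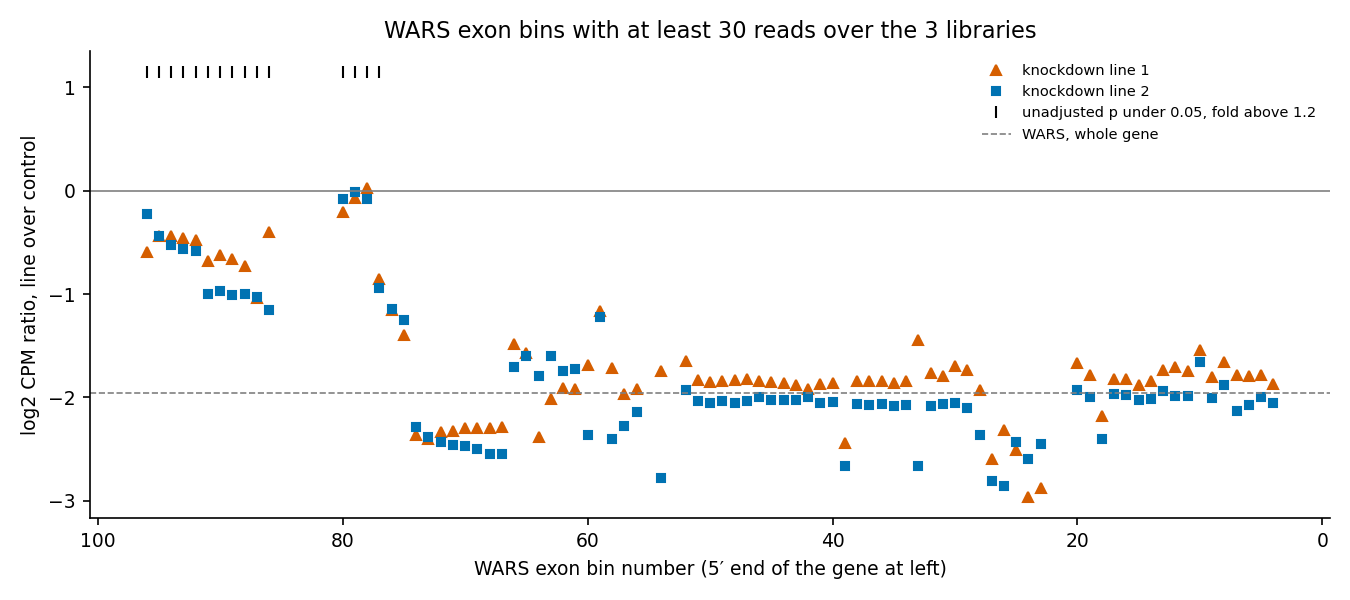
Log2 ratio of CPM in knockdown line 1 (triangles) and line 2 (squares) over the control for each WARS exon bin with at least 30 reads, by bin number with the 5′ end of the gene at left; the dashed line is the whole-gene value of -1.96. Ticks at the top mark the 15 bins past the study's limits, which lie in 2 stretches at the 5′ end where the ratios are closer to 0 than elsewhere.

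HARS and FARSA supplied the other bins. In HARS, bin 29 (1671 bp at chr5:140063253-140064923) had 132, 67 and 90 reads, a relative log2 change of -0.90 (SE 0.18, unadjusted p = 0.0047 from edgeR's exon test, adjusted p = 1), and bin 28 next to it had 30, 12 and 13 reads. In FARSA, bins of 3 and 1 bp had 12, 12 and 29 and 10, 11 and 24 reads. They were named after their values were seen, and these counts are small.

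RBM15 sites came from a list of 1515 regions that the study had already filtered for more reads with anti-RBM15 than with normal IgG, so that an excess at a site is what put it on the list. Of the 36 members, 12 had a site (9 cytosolic and 3 mitochondrial), with 15 sites in all. Over all tested genes with a symbol 3.8% had one, and among genes at 100 CPM or more in the control it was 19.9%. At that level 11 of 22 members had a site, and 20 of those 22 were cytosolic. The list gives no library depth, so the ratios below are of raw reads in 1 library of each antibody, with exact 95% intervals that cover counting error only. The other RIP libraries, XZ4 and XZ5, enter no comparison, since the antibody in their labels and their side of the authors' test conflict.

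By the deposited annotation, 10 of the 15 member sites lay in 3′UTRs, 4 in introns and 1 in coding sequence, where the whole list held 443 3′UTR and 760 intron sites among 1297 with a RefSeq region. The median ratio of anti-RBM15 to IgG reads was 24.5 at the member sites and 31.3 over all sites, and 3 member sites were above that level. WARS had 4 sites. The strongest, in its 3′UTR at chr14:100800959-100801228, had 710 anti-RBM15 and 12 IgG reads, a ratio of 59.2 (33.7 to 115). Closer to the gene's end, chr14:100800508-100800753 had 336 and 11 reads (ratio 30.5, 16.9 to 61.8) and chr14:100800192-100800439 had 211 and 10 reads (ratio 21.1, 11.2 to 44.6). The intron site of WARS at chr14:100817132-100817611 had 188 and 10 reads (ratio 18.8, 10.0 to 39.8). None of these 4 sites lay in the 5′ bins described above.

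The most reads at any member site were in the 3′UTR of IARS (chr9:94972681-94973133), with 1293 anti-RBM15 and 36 IgG reads, a ratio of 35.9 (25.8 to 51.5). LARS, with the coding-sequence site (chr5:145493485-145493866), had 785 and 56 reads, and its ratio of 14.02 (10.7 to 18.7) was the lowest of the 15. The 3′UTR site of DARS (chr2:136664315-136664787) had 645 and 21 reads, a ratio of 30.7. IARS2, at chr1:220320914-220321280 in its 3′UTR, had 417 and 17 reads, a ratio of 24.5.

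Sites in HARS, FARSA, AARS and TARS formed a middle group in reads. HARS (chr5:140053528-140053909) had 392 anti-RBM15 and 19 IgG reads, a ratio of 20.6. FARSA (chr19:13033320-13033656) had 381 and 26 reads, a ratio of 14.7. AARS (chr16:70286283-70286595) had 351 and 17 reads, a ratio of 20.6, and TARS (chr5:33467818-33468137) had 349 and 13 reads, a ratio of 26.8. All 4 were 3′UTR sites with intervals that overlap one another.

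The intron sites of NARS2, MARS and TARS2 held the fewest reads. NARS2 (chr11:78180820-78181149) had 154 anti-RBM15 and 5 IgG reads, a ratio of 30.8 (12.9 to 96.2). MARS (chr12:57882104-57882526) had 135 and 7 reads, a ratio of 19.3 (9.11 to 48.9), and TARS2 (chr1:150478950-150479221) had 75 and 2 reads, a ratio of 37.5 with an interval of 10.0 to 315. The intron label is that of the deposited annotation. In the GENCODE annotation the MARS site overlaps 2 exons of the gene, whereas the intron sites of NARS2, TARS2 and WARS overlap none.

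**Figure D4:**
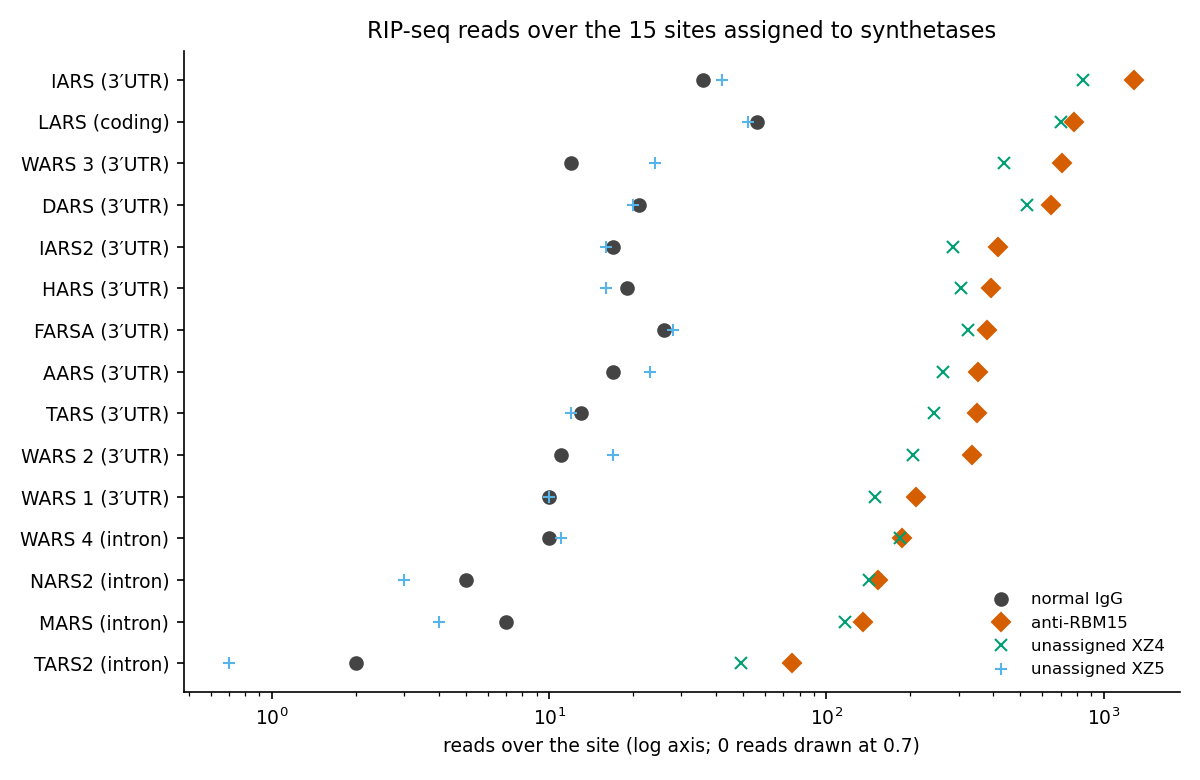
Reads over each of the 15 RBM15 sites assigned to a synthetase, on a log axis, with normal IgG (circles), anti-RBM15 (diamonds) and the unassigned libraries XZ4 (crosses) and XZ5 (plus signs); a count of 0 is drawn at 0.7. Anti-RBM15 reads run from 75 at TARS2 to 1293 at IARS and IgG reads from 2 to 56, as the list's filter requires.

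The RNA-seq fold changes of members with and without a site overlapped. Among cytosolic members the median log2 fold change was -0.79 for the 9 with a site and -0.88 for the 11 without one. Of the 4 called genes, WARS and AARS had a site and CARS and GARS had none, while HARS had a site and a fold change near 0. The 3 mitochondrial members with a site had a median of -0.18 and the 13 without one had -0.06, and no test was run.

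The letters GGACT, a common form of the m6A consensus (RBM15 is also a known subunit of the m6A writer complex), were found in the RNA sense in 5 of the 15 member sites and in 206 of 1285 sites of the whole list with a RefSeq region and strand (16.0%), at median widths of 337 and 359 bp. TTTTT was found in 5 of 15 and in 513 of 1285 (39.9%). No test was run on these counts. The 30 bases around the first GGACT of each of these 5 sites are printed in the RNA sense, in DNA letters from GRCh37, with GGACT in capitals.
WARS (chr14:100800316-100800345, minus strand): tccctggacgggtGGACTtagctagggaga
HARS (chr5:140053795-140053824, minus strand): aggaaaggaagtgGGACTggcactatttga
FARSA (chr19:13033389-13033418, minus strand): tcccagggacagaGGACTgggtagcaggtt
IARS2 (chr1:220321231-220321260, plus strand): atatatccatagtGGACTtattcagaacat
TARS2 (chr1:150479167-150479196, plus strand): ataaggcctgcggGGACTgaagcacttcct
The WARS match lies in the site nearest the end of the gene, not in the one with 710 anti-RBM15 reads.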

How the data were processed

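RNA-seq was made from 3 MEG-01 samples (1 control, 2 RBM15 knockdown lines) and RIP-seq from 4. The authors mapped reads to GRCh37/hg19 with STAR, and the deposited counts are raw reads on each Ensembl exon bin. The submitters' processing notes list HTSeq 0.6.0 without a role, and what counted the bins was not stated elsewhere. The deposited RIP-seq table holds read counts over 1515 sites kept by the authors' own test. Its fold changes and p-values, and the exon statistics of the deposited DEXSeq table, were not used. The latter gave only bin positions.

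Bin counts were summed per gene (a read over several bins appears to count several times) and tested with edgeR 4.0.16 in R 4.3.3: quasi-likelihood test, TMM, at least 30 reads over the libraries, Benjamini-Hochberg adjustment over all genes, called at adjusted p under 0.05. Exon usage used diffSpliceDGE on bins with at least 30 reads. Both were tested on simulated data. Alternatives were RLE size factors, no count filter, DESeq2 1.42.0, an adjusted p of 0.01, other bin minimums, each line alone and 1 bin per gene. RIP-seq was described without a test, with exact Poisson or binomial intervals at 95%. The RIP libraries XZ4 and XZ5 were left out of comparisons, because their antibody labels and their side of the authors' comparison conflict.

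Members and gene lists were chosen with earlier results of these data known. Full values were given for called members and their partners, the 3 largest and 3 smallest changes per compartment, members with a site and the 3 bins with the smallest p. Of the related and response lists, called genes or the 3 largest changes were named. ATF4, DDIT3, KARS, FARSB, VARS, YARS2, AIMP1 and AIMP2 were added after values were seen. Of 36 members, 30 had a RefSeq promoter window (none for DARS, LARS, VARS, YARS, AARS2 and VARS2).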

Additional observations from a re-analysis of the deposited data

Results flagged for a closer look

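A signal appeared in a library outside the comparisons. XZ4, labelled as a normal IgG precipitation, had 4791 reads summed over the 15 synthetase sites, where the normal IgG library of the comparison (XZ3) had 262 and the anti-RBM15 library (XZ6) had 6422. It exceeded XZ3 at 15 of 15 synthetase sites and at all 1515 sites of the list.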

How the results depend on the processing

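The number of synthetases called was 7 with RLE size factors, 10 without the count filter, 8 with DESeq2, 1 at an adjusted p of 0.01 and 1 with the single most-read bin per gene, against 4 as reported. Calls over all genes moved too, at 2.48%, 2.78%, 3.7%, 0.346% and 0.617% of the genes tested in that order, against 1.74%. All called members were lower in each of these, and the 4 reported ones were among the 7, the 10 and the 8. Called related genes dropped to 0 at an adjusted p of 0.01 and to 0 with the single bin. The cytosolic median log2 fold change was -0.85 with RLE, -0.98 without the filter, -0.85 with DESeq2 and -0.77 with the single bin, and leaving out either line gave -0.84 and -0.84 (no test, 1 library a group). The mitochondrial median was -0.19 without the filter, 0.092 with the single bin and -0.092 and -0.076 with 1 line left out. Omitting the filter brought the median of all genes from 0.02 to 0.44, and the cause of the lower medians was not tested. Some members without a call changed sign: QARS 0.027, CARS2 0.15 and RARS2 0.073 with the single bin, and RARS -0.056 and IARS2 -0.12 without the filter. Leaving out a line turned RARS2 to 0.20 and LARS2 to -0.22 in line 2 alone, and IARS2 to -0.01 and FARS2 to -0.10 in line 1 alone. With at least 300 reads per bin, 1 synthetase bin met the study's limits rather than 19. Members with a site numbered 13 by overlap with the gene on either strand, 12 on the same strand and 11 with at least 100 anti-RBM15 reads. No paired analysis was possible because the groups share fewer than 2 replicate numbers (1 control). One control library and 2 lines limit the precision throughout. Each cytosolic member had at least 7481 control reads.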

Other observations

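The unassigned RIP libraries lay close to 1 assigned library each over the synthetase sites. XZ4 ranged from 49 to 846 reads per site and XZ6, anti-RBM15, from 75 to 1293. XZ5, labelled as an RBM15 precipitation, ranged from 0 to 52 reads per site and summed to 278, and XZ3, normal IgG, ranged from 2 to 56 and summed to 262. XZ5 exceeded XZ3 at 6 of 15 synthetase sites and at 659 of 1515 in all.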
